A study of Mus musculus with 7 samples.

Results

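Microglia extend, retract and crawl with the help of ion channels that set their membrane potential, let calcium in and move acid and chloride. The genes described here encode 9 such channels: the potassium channels Kcnk13, Kcnk6, Kcnj2, Kcna3 and Kcnn4, the proton channel Hvcn1, the cation channels Trpv2 and Trpm2, and the chloride channel protein Clic1. They were chosen by name, with earlier results of these data known, and all 9 were found among the 40743 genes listed. Their RNA was measured in retinal microglia (rMG) of mice labelled Irf8 KO, in 3 libraries from unlasered eyes and 4 libraries from eyes with laser-induced choroidal neovascularisation, a model in which laser burns through the retina let vessels of the choroid grow inwards. All mice of both groups were Irf8-/- Cx3cr1GFP/+ on a C57BL/6J background free of the Crb1 mutation. They therefore carried GFP in 1 copy of the fractalkine receptor gene Cx3cr1, which marks microglia and other myeloid cells, and the Irf8 deletion was carried in the germline and thus not restricted to microglia. The mice of the unlasered group were adult. Their age in weeks, and the age of the lasered Irf8 KO mice, were not given for these libraries in the sources used here. Cells from lasered eyes were collected 7 days after laser, from the central 70% of the retina only, whereas no such restriction was stated for unlasered eyes, so laser and retinal region cannot be told apart. Each library held sorted CD45low CD11b+ Cx3cr1GFP/+ Ly6C- Ly6G- cells pooled from 3 to 4 mice, with 10000 cells on average. Nothing in the labels says that the pools were independent experiments, and the p-values measure only the spread between these libraries.

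The resting potential of microglia is held negative by potassium channels that are open at rest. Among them, the tandem-pore channel THIK-1 (Kcnk13) is known for the constant movement of microglial processes, and it opens further when the ADP receptor P2Y12 is stimulated. Voltage-gated Kv1.3 (Kcna3) and calcium-activated KCa3.1 (Kcnn4) are known from activated microglia, macrophages and T cells, where the potassium that leaves through them keeps the driving force for calcium entry. Calcium entry through TRP channels, proton extrusion through Hv1 (Hvcn1) and chloride flux accompany migration, phagocytosis and the oxidative burst.

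Levels are given as CPM, the reads of a gene scaled to the same total in every library. The libraries held 20427558 to 36022954 reads in the unlasered group and 37133297 to 45919042 reads in the lasered group, so that 3 reads, the smallest amount taken as detectable, corresponded to 0.0653 to 0.147 CPM. This floor covers counting error only. The targeted gene Irf8 was still read at 489 to 529.9 CPM in the unlasered and at 463 to 582 CPM in the lasered libraries, listed jointly with the overlapping Gm20388, and whether these reads lie outside the deleted stretch was not tested. For this reason the genotype is given as the label states it. Microglial markers summed to 26681 to 31821 CPM in the unlasered and 23769 to 32437 CPM in the lasered group, and 0 of the 11 that could be tested passed an adjusted p of 0.05 in limma. Tmem119 lay between 1175 and 1739 CPM, while Sall1, a transcription factor that defines microglia, was at 0 to 1.36 CPM. Rod photoreceptors lie outside this gate, yet the sum of their markers was 2201, 19730 and 5688 CPM over the 3 unlasered libraries in order of their number, and 1009, 451, 802 and 329 CPM over the 4 lasered ones.

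Of the 9 channel genes, Kcnn4 was higher in lasered rMG and the other 8 did not pass the test. Kcnn4 rose 3.08-fold on the scale of CPM + 1. In limma, fitted on log2(CPM + 1) over the 17496 genes that reached 1 CPM in 3 or more libraries, 1 of 9 channel genes had an adjusted p under 0.05 in the direction of lasered rMG, where 3.86% of all genes tested did, and 0 of 9 in the other direction, where 3.07% did. In 3 of the 9, Kcnn4, Kcna3 and Trpv2, every lasered library lay above every unlasered library, which was the case for 10.4% of all genes tested. The groups overlapped for the remaining 6. The median log2 fold change over the 9 was 0.14, against -0.01 over all genes tested. In 7 of the 9 the fitted difference pointed to lasered rMG and in Hvcn1 and Clic1 to unlasered rMG. The sign of both turned under TMM scaling, and that of Hvcn1 also under median-of-ratios scaling. Leaving out unlasered library 3 raised the count of called channel genes from 1 to 2, with Trpm2 added. In that fit 1248 of all genes were called in either direction, against 1213 in the main fit. Trpm2 was called in 1 of the 7 fits with a library left out. With DESeq2 on the reads recovered from the CPM values, 2 of the 9 were called higher, Kcnn4 and Kcna3, against 6.73% of all genes.

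**Figure D1:**
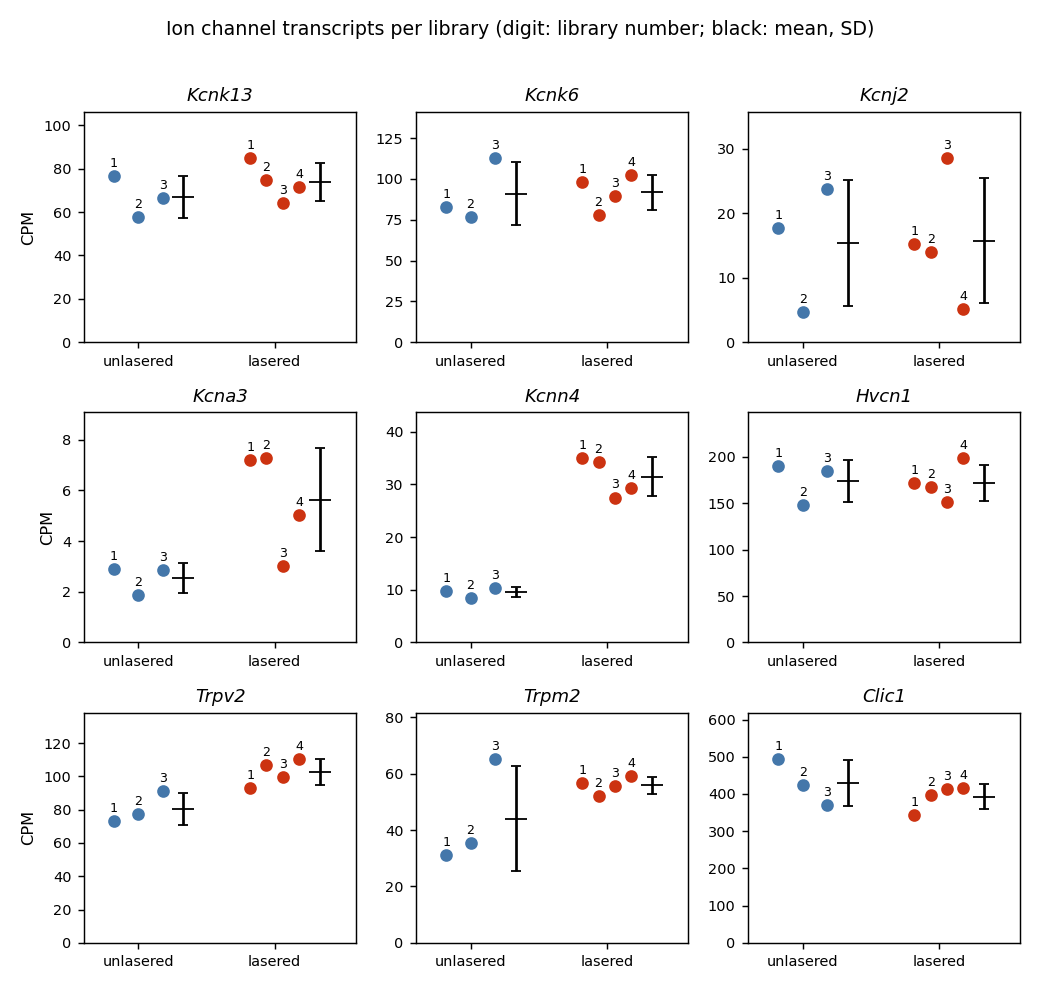
Levels of the 9 channel genes in CPM (vertical axes, each starting at 0), with blue points for the 3 unlasered and red points for the 4 lasered libraries. The digit above a point is the library number, and the black bar is the mean with its SD. The red points of Kcnn4, at 27.5 to 35.0 CPM, lie far above its blue points at 8.53 to 10.4 CPM. In Kcna3 and Trpv2 the lowest red point lies narrowly above the highest blue point, and the groups overlap in the other panels.

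The stretch of 250 bases before the transcription start is shown for Kcnn4, Kcna3 and Trpv2, because these are the genes whose lasered and unlasered libraries did not overlap. The sequences come from RefSeq (GRCm38.p6), which matched 7 of the 9 genes. Kcnk6 and Hvcn1 had no entry. Capitals mark the motifs found.
Kcnn4, chr7:24370013-24370262, + strand: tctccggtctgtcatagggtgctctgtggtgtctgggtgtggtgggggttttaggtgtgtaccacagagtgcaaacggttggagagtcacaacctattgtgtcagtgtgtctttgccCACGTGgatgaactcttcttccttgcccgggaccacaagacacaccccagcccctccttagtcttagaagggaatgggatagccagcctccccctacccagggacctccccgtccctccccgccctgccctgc
Kcna3, chr3:107035912-107036161, + strand: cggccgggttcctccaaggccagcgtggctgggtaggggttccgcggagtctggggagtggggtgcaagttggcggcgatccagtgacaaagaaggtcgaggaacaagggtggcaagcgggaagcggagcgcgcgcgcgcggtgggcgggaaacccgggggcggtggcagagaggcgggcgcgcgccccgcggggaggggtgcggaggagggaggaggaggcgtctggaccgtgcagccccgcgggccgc
Trpv2, chr11:62574236-62574485, + strand: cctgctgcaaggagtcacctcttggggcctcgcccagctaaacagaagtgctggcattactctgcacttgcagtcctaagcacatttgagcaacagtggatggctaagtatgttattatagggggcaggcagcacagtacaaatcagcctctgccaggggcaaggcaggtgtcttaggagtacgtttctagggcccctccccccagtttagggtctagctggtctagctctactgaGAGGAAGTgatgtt
Both strands were searched for AP-1 (TGANTCA, read by Fos and Jun), PU.1 (GAGGAAGT, read by the myeloid ETS factor Spi1), the ETS-IRF composite element (GGAANNGAA, read by PU.1 together with Irf4 or Irf8) and the E-box (CACGTG, read by helix-loop-helix factors). The letters GGAA occur in the PU.1 and the composite motif, so that these can overlap. Kcnn4 held an E-box 133 to 128 bases before its start, as did 6.02% of 32851 promoters of the same length. Trpv2 held the PU.1 letters 14 to 7 bases before its start, as did 2.44% of promoters. For Kcna3, none of the 4 motifs stood in this window. Among the other genes with an entry, Kcnj2 held an E-box 84 to 79 bases and Clic1 an AP-1 motif 38 to 32 bases before the start. All positions count from the RefSeq start. For Clic1 and Trpm2 this start lay 277 and 691 bases inside the gene coordinates given below, and for Kcna3 it lay 7 bases outside them. AP-1 occurred in 6.75% of promoters and the composite element in 6.99%, the latter in none of the 7 windows. A match describes the letters only.

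Kcnn4 (ENSMUSG00000054342, chromosome 7 of GRCm38, 24370263 to 24386690, + strand, protein-coding) encodes KCa3.1, which opens on a rise of internal calcium. Its level was 9.69, 8.53 and 10.4 CPM in the unlasered and 35.0, 34.2, 27.5 and 29.3 CPM in the lasered group, each in the order of the library number, as in all that follows. The reads behind these values numbered 198 to 373 and 1087 to 1543 per library. Every lasered library stood well above the highest unlasered library, and the distance between the groups was larger than the spread within either. The means were 9.52 ± 0.925 CPM (SD, n = 3) and 31.5 ± 3.65 CPM (SD, n = 4). The log2 fold change of CPM + 1 was 1.62 (SE 0.16), with a 95% interval from 1.26 to 1.98, which corresponds to 2.40-fold to 3.95-fold (limma, adjusted p = 0.00239). In bulk RNA, more RNA per cell and more cells of a type that holds the transcript cannot be told apart. With each library left out in turn the adjusted p stayed between 0.00697 and 0.0162.

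KCa3.1 is also known from monocytes, lymphocytes, mast cells and red blood cells, and the markers of these cells were therefore read in the same libraries. The sum of monocyte markers was 129, 55.4 and 132 CPM without and 223, 275, 74.0 and 29.5 CPM with laser, 0 of the 6 tested passed in limma (8 listed), and Ly6c2 stayed under 1 CPM in every library. The chemokine receptor Ccr2, which marks monocytes, was at 5.63, 6.37 and 14.2 CPM and at 81.5, 128, 19.7 and 7.57 CPM. Plac8, of the same list, was at 47.0, 9.78 and 45.6 CPM without and at 27.3, 39.6, 10.6 and 3.58 CPM with laser. The lasered libraries 1 and 2, highest in Ccr2, were also the highest in Kcnn4, at 35.0 and 34.2 CPM. In lasered library 3 Kcnn4 was at 27.5 CPM, and in lasered library 4, where monocyte markers were lowest, at 29.3 CPM. T and NK cell markers summed to 1.00 to 2.11 CPM and 1.68 to 5.50 CPM, with Cd3e at 0.049 CPM or less in every library, and the 1 of 8 that could be tested did not pass. Mast cell and basophil markers summed to 1.499 to 3.28 CPM and 2.10 to 14.5 CPM, and 0 of the 2 tested passed. In lasered libraries 1 and 2, Kit made up 9.95 and 12.3 CPM of these sums. Red blood cell markers were at 0.0269 to 1.52 CPM in every library but lasered library 1, which held 84.8 CPM. In lasered libraries 2 to 4 Kcnn4 was at 27.5 to 34.2 CPM. Pericyte markers summed to 2.25 to 6.77 CPM in the unlasered and 22.6 to 42.1 CPM in the lasered libraries. The 1 of 3 tested that passed was Cspg4, at 0.613 to 4.14 CPM and 20.0 to 37.1 CPM, while the pericyte marker Kcnj8 was at 0.098 CPM or less in every library. The part of monocytes, lymphocytes, mast cells, red blood cells and pericytes in the Kcnn4 values was not tested.

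Kcna3 (ENSMUSG00000047959, chromosome 3, 107036169 to 107038070, + strand, a single exon) encodes Kv1.3, which opens on depolarisation. It was at 2.89, 1.87 and 2.86 CPM in the unlasered and at 7.20, 7.26, 3.03 and 5.04 CPM in the lasered libraries. The lasered libraries spread widely, and the lowest of them, library 3, exceeded the highest unlasered value only narrowly. Reads were few, 59 to 103 in unlasered and 139 to 326 in lasered libraries. The means were 2.54 ± 0.580 CPM (SD, n = 3) and 5.63 ± 2.02 CPM (SD, n = 4), and the log2 fold change of 0.86 (SE 0.28), with a 95% interval from 0.22 to 1.504, did not pass (limma, adjusted p = 0.108). DESeq2 gave a log2 fold change of 1.16 and called it (adjusted p = 0.0305). Over the 18 alternatives the adjusted p of Kcna3 lay between 0.0305 and 0.268, and DESeq2 was the only one that called it. The lasered libraries 1 and 2, highest in Kcna3, were also the highest in Ccr2. Lasered library 3 exceeded lasered library 4 in Ccr2, at 19.7 against 7.57 CPM, but lay below it in Kcna3. Of the 6 monocyte markers tested, Ccr2 included, 0 passed in limma. The part of monocytes in the Kcna3 values was not tested. The spans of Kcna3 and of Gm27008 on the other strand overlap, with no exon in common, and these libraries do not mark the strand. The same holds for Kcnk13 and Gm23291.

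The channels that are open at rest differed less between the groups than their libraries did among themselves. Kcnk13 (ENSMUSG00000045404, chromosome 12, 99964499 to 100062682, + strand) was at 76.6, 57.6 and 66.7 CPM in the unlasered and 85.0, 74.7, 64.2 and 71.4 CPM in the lasered libraries. The ranges overlapped over most of their width. The means of 67.0 ± 9.52 CPM (SD, n = 3) and 73.8 ± 8.62 CPM (SD, n = 4) gave a log2 fold change of 0.14 (SE 0.15), with a 95% interval from -0.20 to 0.48 (limma, adjusted p = 0.635). On the scale of CPM + 1 this interval ran from 0.873-fold to 1.39-fold. Kcnk6 (ENSMUSG00000046410, chromosome 7, 29221926 to 29232515, - strand) encodes TWIK-2, through which potassium leaves macrophages before the inflammasome forms. It was at 83.0, 76.6 and 113 CPM and at 98.1, 77.7, 89.7 and 102 CPM, with a log2 fold change of 0.03 (SE 0.17, 95% interval -0.35 to 0.41, limma adjusted p = 0.938). Both the highest and the lowest Kcnk6 value belonged to unlasered libraries.

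Kcnj2 (ENSMUSG00000041695, chromosome 11, 111066164 to 111076821, + strand) encodes the inward rectifier Kir2.1, and it was the least reproducible of the 9. It was at 17.7, 4.70 and 23.8 CPM in the unlasered and 15.2, 14.0, 28.6 and 5.12 CPM in the lasered libraries. Each group held a library near 5 CPM and a library above 20 CPM. The means were nearly equal, 15.4 ± 9.76 CPM (SD, n = 3) and 15.7 ± 9.68 CPM (SD, n = 4), but the 95% interval of the log2 fold change of 0.07 (SE 0.59) ran from -1.27 to 1.40 (limma, adjusted p = 0.963). A change of Kcnj2 by a factor of 2 in either direction lay within this interval.

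Hvcn1 (ENSMUSG00000064267, chromosome 5, 122206804 to 122242297, + strand) encodes the voltage-gated proton channel Hv1, which lets acid out while the NADPH oxidase is active. It was measured at 189.7, 148 and 184 CPM in the unlasered and at 172, 167, 152 and 198 CPM in the lasered libraries. The lowest value belonged to unlasered library 2 and the highest to lasered library 4, and the ranges overlapped over most of their width. With means of 174 ± 22.4 CPM (SD, n = 3) and 172 ± 19.4 CPM (SD, n = 4), the log2 fold change was -0.015 (SE 0.14, 95% interval -0.33 to 0.30, limma adjusted p = 0.964), and it was 0.067 under median-of-ratios and 0.11 under TMM scaling. Exons of Hvcn1 overlap those of Tctn1 on the other strand, and reads from the overlap cannot be told apart without strand. The deposited values list no reads of Hvcn1 jointly with another gene.

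The TRP channels among the 9 both conduct calcium. Trpv2 (ENSMUSG00000018507, chromosome 11, 62574486 to 62600515, + strand) is known from phagocytosis by macrophages. It was at 73.1, 77.4 and 91.3 CPM in the unlasered and 93.2, 107, 99.6 and 111 CPM in the lasered libraries. All lasered libraries lay above all unlasered ones, although lasered library 1 did so by less than the distance between unlasered libraries 2 and 3. The means of 80.6 ± 9.51 CPM (SD, n = 3) and 103 ± 7.77 CPM (SD, n = 4) gave a log2 fold change of 0.35 (SE 0.13, 95% interval 0.05 to 0.64), which did not pass (limma, adjusted p = 0.150), and neither did it under any alternative, where the adjusted p lay between 0.0599 and 0.3505. Trpm2 (ENSMUSG00000009292, chromosome 10, 77907722 to 77970563, - strand) opens with ADP-ribose and oxidative stress. It was at 31.2, 35.4 and 65.3 CPM in the unlasered and 56.6, 51.9, 55.6 and 59.2 CPM in the lasered libraries. The lasered libraries agreed closely, whereas unlasered library 3 exceeded them all and libraries 1 and 2 lay below them.

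For Trpm2 the means were 43.9 ± 18.6 CPM (SD, n = 3) and 55.9 ± 3.04 CPM (SD, n = 4), and the log2 fold change of 0.41 (SE 0.23, 95% interval -0.11 to 0.94) did not pass (limma, adjusted p = 0.334). Without unlasered library 3 it was 0.73 and passed (limma, adjusted p = 0.0228), and over all alternatives the adjusted p lay between 0.0228 and 0.6999. A part of the Trpm2 reads was listed jointly with Gm22394 and Gm22871, which lie within it on the same strand.

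Clic1 (ENSMUSG00000007041, chromosome 17, 35049966 to 35058749, + strand) encodes a protein that exists in the cytosol and as a chloride channel in membranes. It was at 495, 424 and 370.01 CPM in the unlasered and 344, 398, 413 and 415 CPM in the lasered libraries. The values of the groups were interleaved, with the highest in unlasered library 1 and the lowest in lasered library 1. The means of 429.5 ± 62.5 CPM (SD, n = 3) and 393 ± 33.1 CPM (SD, n = 4) gave a log2 fold change of -0.12 (SE 0.13, 95% interval -0.42 to 0.18, limma adjusted p = 0.642), and under TMM scaling it was 0.0009.

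**Figure D2:**
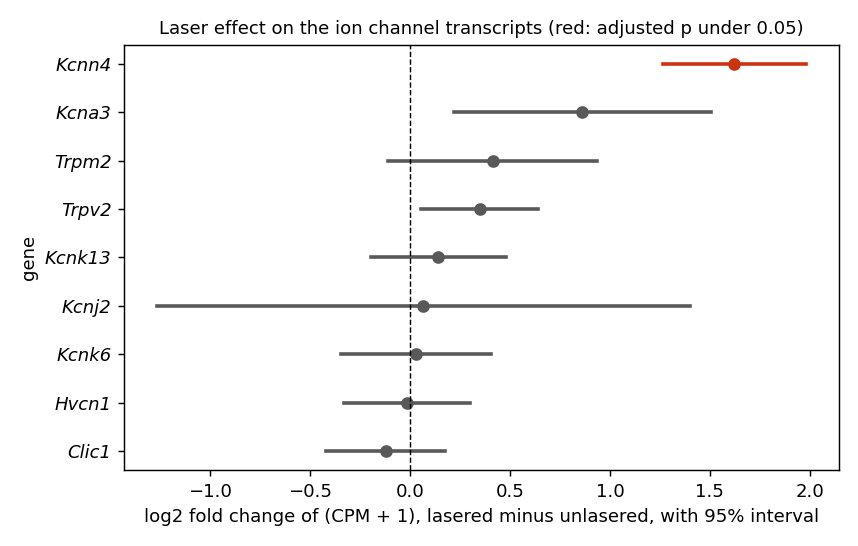
Log2 fold change of CPM + 1, lasered minus unlasered, for the 9 channel genes (horizontal axis), with the 95% interval of limma as a line and red for an adjusted p under 0.05. Only the point of Kcnn4 is red, at 1.62 with an interval from 1.26 to 1.98, and the interval of Kcnj2 is the widest, from -1.27 to 1.40.

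Per kilobase of exonic length, a rough scale for setting genes beside each other, the 9 transcripts spanned a wide range. This length joins all annotated exons of a gene, so it can exceed that of the transcripts present. In unlasered rMG, Clic1 led with 239 ± 34.7 CPM per kb (SD, n = 3), followed by Hvcn1 with 48.9 ± 6.29 CPM per kb. Kcnk6, Kcnk13 and Trpv2 followed at 21.9, 21.5 and 17.97 CPM per kb, with overlapping ranges between neighbours. At the lower end stood Trpm2 with 3.53, Kcnj2 with 2.83, Kcnn4 with 1.86 and Kcna3 with 1.33 CPM per kb. Of these, the ranges of Trpm2 and Kcnj2 overlapped, as did those of Kcnj2 and Kcnn4, while Kcnn4 lay above Kcna3 in all unlasered libraries. The tandem-pore channels were thus the most abundant potassium channel transcripts among the 9 in unlasered rMG.

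In lasered rMG the order at the upper end was Clic1 with 218 ± 18.4 CPM per kb (SD, n = 4) and Hvcn1 with 48.3 ± 5.44 CPM per kb. Kcnk13, Trpv2 and Kcnk6 lay at 23.7, 22.9 and 22.1 CPM per kb and could not be ordered against each other. Kcnn4 stood at 6.16 ± 0.714 CPM per kb, in the sixth place in place of the eighth, with its range above that of Trpm2 at 4.48 ± 0.244 CPM per kb. This order rests on the lengths used, since before division by length Kcnn4 lay below Trpm2, at 31.5 against 55.9 CPM. Kcna3 at 2.96 and Kcnj2 at 2.89 CPM per kb had overlapping ranges. Even after its rise, Kcnn4 remained below Kcnk13 and Kcnk6 in every lasered library.

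**Figure D3:**
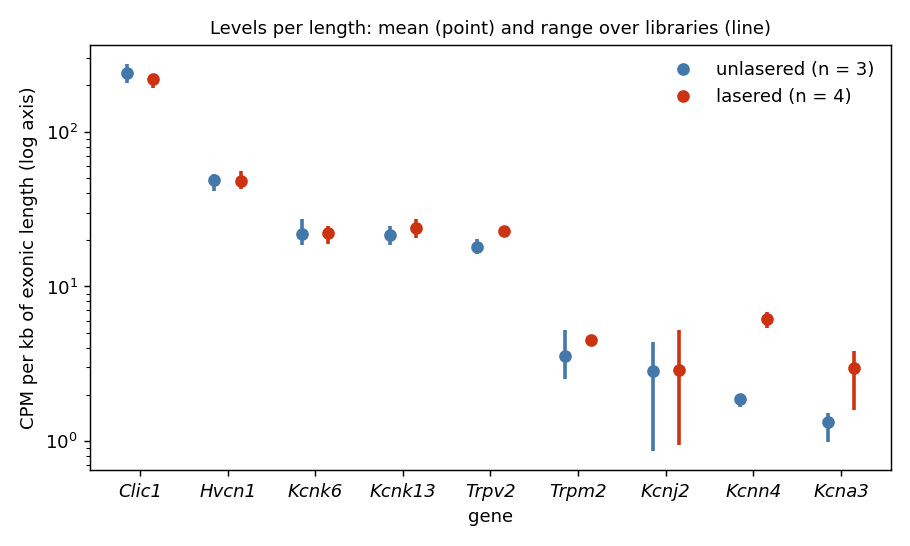
Mean level per kilobase of exonic length (points, log axis, CPM per kb) with the range over libraries (lines), blue for unlasered (n = 3) and red for lasered (n = 4) rMG, ordered by the unlasered mean. Clic1 lies highest at 239 and 218 CPM per kb, and Kcnn4 moves from 1.86 to 6.16 CPM per kb.

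A list of microglial receptors, set up as possible inputs to these channels, was read in the same fit. Whether they act on the channels in these cells was not tested. P2ry12, the ADP receptor that opens THIK-1, was at 569, 412 and 498 CPM in the unlasered and 257, 244, 332 and 404 CPM in the lasered libraries. All lasered libraries lay below all unlasered ones, lasered library 4 only narrowly. The log2 fold change of -0.69 (SE 0.19) did not pass (limma, adjusted p = 0.0693). C5ar1, the receptor for the chemoattractant C5a, fell from 973, 1030 and 781 CPM, with a mean of 928 ± 130.1 CPM (SD, n = 3), to 599.8, 539.7, 564 and 579 CPM, with a mean of 571 ± 25.3 CPM (SD, n = 4). Its log2 fold change was -0.69 (SE 0.12, limma adjusted p = 0.0162), and the adjusted p was 0.0568 without lasered library 2 and 0.00989 at the lowest with another library left out. Of the 8 receptor genes tested, C5ar1 was the 1 that passed.

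Among the other potassium channels, 14 of 31 genes could be tested, and 1 rose and 3 fell in lasered rMG. Kcnd1, a voltage-gated channel of the A type, rose from 1.08, 1.14 and 0.194 CPM to 2.97, 2.38, 2.33 and 3.58 CPM, a log2 fold change of 1.12 (SE 0.26, limma adjusted p = 0.0368). Its reads were few, 7 to 39 in unlasered and 107 to 133 in lasered libraries. Kcnd1 met the filter of 1 CPM in 3 or more libraries only through the lasered group, where it was high. The call of Kcnd1 held in 2 of the 7 fits with a library left out, those without unlasered library 1 or 2 (adjusted p 0.0484 to 0.0942 over the 7). Among the genes that fell were Kcnj14, which encodes the inward rectifier Kir2.4, and Kcnma1, which encodes the large-conductance calcium-activated BK channel. Kcnj14 was at 18.1, 159.8 and 36.0 CPM in the unlasered and 4.76, 2.34, 7.12 and 2.96 CPM in the lasered libraries (log2 fold change -3.28, SE 0.63, limma adjusted p = 0.0212), and its call was lost without lasered library 2 (adjusted p 0.0134 to 0.0643 with a library left out).

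For Kcnj14, unlasered library 2 was the highest, followed by unlasered library 3 and then 1, which is also the order of the summed rod markers in these libraries (given above). Of the 15 rod markers, 14 were called lower in lasered libraries, and the part of rod RNA in the Kcnj14 values was not tested. Kcnma1 was at 13.6, 4.12 and 5.05 CPM in the unlasered and 2.02, 2.09, 1.18 and 1.67 CPM in the lasered libraries (log2 fold change -1.499, SE 0.35, limma adjusted p = 0.0379). Its highest value was in unlasered library 1. The call of Kcnma1 was lost when any 1 of the 4 lasered libraries was left out (adjusted p 0.0339 to 0.0966 over the 7 fits), and the part of rod RNA in its values was not tested. Kcnk12, the closest relative of Kcnk13 in the tandem-pore family, was singled out after its values were seen. It was at 6.56, 6.63 and 8.16 CPM in the unlasered and 11.8, 9.49, 11.98 and 18.6 CPM in the lasered libraries, without overlap, and its log2 fold change of 0.75 (SE 0.23) did not pass (limma, adjusted p = 0.0887).

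Of the other TRP channels, 10 of 23 were tested, and Trpm4 was the 1 that passed. Trpm4, a monovalent cation channel opened by internal calcium, rose from 48.7, 55.3 and 47.9 CPM to 80.9, 85.9, 73.4 and 83.5 CPM. The means were 50.6 ± 4.09 CPM (SD, n = 3) and 80.9 ± 5.43 CPM (SD, n = 4), and the log2 fold change was 0.67 (SE 0.13, limma adjusted p = 0.0196). All lasered libraries lay above all unlasered ones, and the call was lost without unlasered library 1 or lasered library 1 or 2 (adjusted p 0.0306 to 0.0686 with a library left out). Of the genes for store-operated calcium entry and calcium release, all 15 were tested and 1 passed, Tpcn2, a channel of lysosomes and late endosomes. It rose from 31.1, 21.5 and 24.2 CPM to 44.5, 41.7, 50.04 and 36.8 CPM, a log2 fold change of 0.74 (SE 0.17, limma adjusted p = 0.0374). The call of Tpcn2 held without unlasered library 1 or lasered library 4 and was lost when any other library was left out (adjusted p 0.0311 to 0.103).

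Of the chloride and volume-regulated channels, 17 of 22 were tested and Clic5, a relative of Clic1, fell. It was at 5.24, 8.24 and 10.7 CPM in the unlasered and 1.22, 1.98, 0.414 and 1.08 CPM in the lasered libraries, a log2 fold change of -2.06 (SE 0.30, limma adjusted p = 0.00947). Its call held with each library left out in turn (adjusted p 0.0119 to 0.0307). None of the genes for potassium channel auxiliary subunits (5 of 11 tested), mechanosensitive and pannexin channels (7 of 9 tested) or proton handling and the sodium pump (15 of 16 tested) passed in limma. In these lists 1, 2 and 1 genes had an unadjusted p under 0.05 in limma, where 3963 of all 17496 genes tested did. The median log2 fold changes of the lists lay between -0.37 for the auxiliary subunits and 0.10 for store-operated entry and release, against -0.01 for all genes tested. Over all lists beside the 9, 91 of 137 genes were tested, 3 rose and 5 fell, receptors included. Of all genes tested, 3.86% were called higher and 3.07% lower. The 3 rises were sensitive to single libraries, with 0 left without lasered library 1 or 2, 1 without lasered library 3 and 5 without unlasered library 3. The 5 falls came to 1 without lasered library 2 and 3 without lasered library 3.

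**Figure D4:**
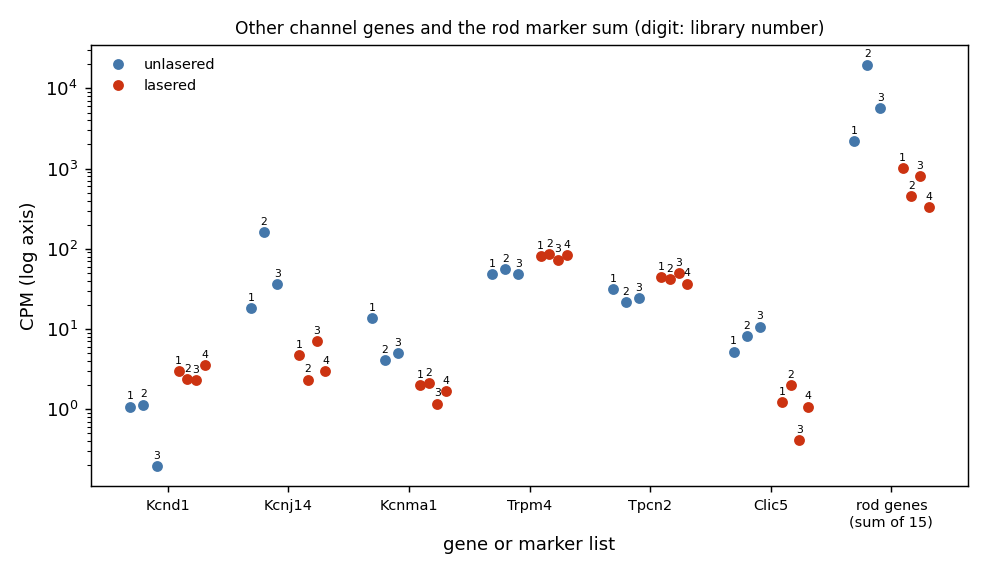
Levels in CPM (log axis) of 6 other channel genes with an adjusted p under 0.05 and, at the right, the sum of the 15 rod markers, in blue for unlasered and red for lasered libraries with the library number above each point. Unlasered library 2 is the highest in Kcnj14 at 159.8 CPM and in the rod sum at 19730 CPM.

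Other cell types were read in the same way. Border macrophage markers summed to 1264 to 1408 CPM and 938 to 1222 CPM, with Pf4 called lower and Siglec1 called higher. For this sum and those of rods and pericytes the groups did not overlap (exact permutation test, two-sided, p = 0.0571, the smallest that 3 against 4 libraries allow). Sums of the remaining lists overlapped between the groups. They were 52182 to 77221 and 29452 to 72631 CPM for Müller glia and astrocytes, most of it Apoe, 14.8 to 54.8 and 16.9 to 27.8 CPM for endothelial cells, and 20.6 to 36.6 and 16.7 to 26.3 CPM for the retinal pigment epithelium. Neutrophil markers summed to 0.613 to 11.2 and 0.646 to 8.24 CPM, B cell markers to 49.9 to 97.9 and 37.0 to 79.1 CPM, and inner retinal neuron markers to 56.7 to 220.3 and 56.5 to 79.2 CPM. The part of any of these cells in the channel values was not tested.

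Finally, the gene most like each channel gene in its pattern over the 7 libraries was sought among 10280 genes with a mean of at least 10 CPM, by Pearson's r of log2(CPM + 1). These values describe 7 points from 2 groups that share their libraries and depth, and genes are not independent replicates. For Kcnn4 this was Gm5851 (r = 0.994), at 8.12 ± 0.480 CPM (SD, n = 3) in the unlasered and 18.5 ± 1.92 CPM (SD, n = 4) in the lasered group, and 438 genes had an r of at least 0.9 with Kcnn4. Trpm2 was most like Taok2 (r = 0.994), with 266 genes at or above 0.9, and both had their highest value in unlasered library 3. Kcnk6 was most like Top3a (r = 0.992), Kcnj2 like Map3k2 (r = 0.991), Clic1 like Tfap2d (r = 0.990) and Trpv2 like Gm16861 (r = 0.980). The lowest values were those of Kcnk13 with Riox1 (r = 0.964) and of Hvcn1 with Kdm3a (r = 0.959), and 5 genes only reached 0.9 with Kcnk13. Kcna3 lay under 10 CPM and was left out of this ranking.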

How the data were processed

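RNA of sorted rMG was amplified with the SMARTer v4 kit and made into Nextera XT libraries, which do not mark the strand. Per the methods and labels, the authors trimmed adapters (cutadapt), dropped duplicate reads (FastUniq), aligned to GRCm38 (bowtie2) and counted reads per gene (HTSeq). The deposited values are headed TPM, but the authors did not divide them by length: in each library they are whole multiples of the value of 1 read, so they are CPM, and whole reads were recovered for 100% of values (tolerance 0.1 read). Of 40743 genes, 99.8% matched GENCODE M21, which gave coordinates and lengths. Reads of overlapping genes were listed jointly for 4492 genes. The wild-type libraries were not analysed here.

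The laser comparison was fitted in R 4.3.3 with limma 3.58.1 on log2(CPM + 1), using eBayes with its trend and robust options, two-sided, with Benjamini-Hochberg adjustment over 17496 genes. Alternatives were pseudocounts of 0.1 and 5, no filter, a mean of 10 reads, the replicate block, each library left out, median-of-ratios and TMM scaling, totals without rod genes, and edgeR 4.0.16, DESeq2 1.42.0 and voom on the recovered reads. The test was tested on simulated data. Tables and plots were made in Python 3.11.15 (matplotlib 3.10.9, scipy 1.17.1, numpy 2.4.6, pandas 2.3.3).

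The 9 genes and all gene lists were chosen with earlier results of these data known. Of the other channel lists, genes with an adjusted p under 0.05 were named, up to 3 per direction and list, together with P2ry12 and the gene most like each of the 9. Marker genes were named where their list moves with a result. Kcnk12 was named in addition. Not every gene that this rule picks is reported here, although the counts include all of them.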

Additional observations from a re-analysis of the deposited data

Results flagged for a closer look

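Of 40 levels and marker sums examined over the 4 lasered libraries, 1 held a library far from the others. The summed red blood cell markers were at 84.8 CPM in lasered library 1, against 0.668, 0.240 and 0.0269 CPM in lasered libraries 2, 3 and 4. A library was flagged where its gap to the nearest one exceeded 0.829 of the range, and here the gap was 0.992 of the range. About 1 in 20 groups of 4 normally distributed values passes the limit of 0.829 by chance. Kcnn4, which encodes the channel also known from red blood cells, was at 35.0 CPM in lasered library 1 and at 27.5 to 34.2 CPM in the other lasered libraries. Without lasered library 1 the log2 fold change of Kcnn4 was 1.57 (limma, adjusted p = 0.0125, within 0.00697 to 0.0162 over all single libraries left out).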

How the results depend on the processing

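Kcnn4 kept its direction under all 18 alternatives and its call under 17, with log2 fold changes from 1.33 to 1.74. The labels do not say whether equal library numbers pair the libraries. After subtracting each group's mean, those of the same number correlated at -0.183, -0.126 and -0.0234. Of 3 unlasered libraries, 0 correlated best with its own number. With 3 against 4 libraries this check cannot exclude a pairing. With the replicate block, in which lasered library 4 has no partner, the log2 fold change of Kcnn4 was 1.65 (adjusted p = 0.0708, against 1.29e-19 to 0.0162 under the others). The block left 3 genes called in all, 0 of the 9, and 0 higher and 0 lower among the other channel lists. The block changed no other call among the 9. Calls over all genes, 1213 in the report, came to 385 with no filter, 2318 with DESeq2 and 264 to 1248 with a library left out. Of the 9, 2 were called with DESeq2 and 1 to 2 with a library left out. Among the other channel lists, the 3 rises became 0 with no filter, 5 with TMM, 7 with DESeq2 and 0 to 5 with a library left out, and the 5 falls 2, 6, 12 and 1 to 6.

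Signs turned only in genes that were never called. Kcnk6 was at -0.023 with the block and at -0.081 to 0.195 with a library left out, Kcnj2 at -0.57 to 0.49 and Hvcn1 at -0.125 to 0.051 likewise. Hvcn1 was at 0.067 under median-of-ratios and 0.11 under TMM scaling, and Clic1 at 0.0009 under TMM. The median over all genes was -0.01 in the report, 0.06 under median-of-ratios and 0.10 under TMM, and 55.7%, 65.2% and 69.1% of calls were higher in lasered libraries. Relative order by length moved Kcnk13, Kcnn4, Trpv2 and Trpm2 to places 3, 6, 5 and 7. The cause of these shifts was not tested. Precision is limited by 3 against 4 libraries, and Kcna3 rests on 59 to 326 reads per library.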
